A study of Mus musculus with 37 samples.

Results

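The integrin genes of uterine natural killer (uNK) cells were followed in 37 bulk RNA-seq libraries. They are 10 of the 53700 genes counted in every library, listed by name: Itga1, Itga2, Itga4, Itgae, Itgal, Itgam and Itgav, which encode alpha subunits, and Itgb1, Itgb2 and Itgb7, which encode beta subunits. The list sets the integrins of tissue-resident NK cells beside those of conventional, circulating NK cells. Its rule uses no measured value, but the list was chosen with earlier results of these data known. The uNK cells came from the pregnant uterus of C57BL6 mice at gestation day 9.5 to 10.5 and were sorted by the inhibitory receptors NKG2A and Ly49C/I, which recognise self MHC class I and through which NK cells are educated. The uneducated population is the one that lacks both receptors. From WT mice there were 9 libraries of uneducated cells, 9 of NKG2A+ Ly49C/I- cells and 6 of Ly49C/I+ NKG2A- cells. From mice labelled NKG2A KO there were 8 libraries of uneducated cells and 5 of Ly49C/I+ cells. Cells positive for both receptors were not collected. All populations were live single CD45+ NKp46+ cells, from which cells with CD3, CD4, CD8 or high CD11b, among others, had been gated out. CD11b is the protein of Itgam, so that cells with the most of it are missing from every group. In NKG2A KO mice the NKG2A gate cannot set apart the cells that would have carried the receptor. Uneducated cells of the 2 genotypes therefore need not be the same population, and the same holds for their Ly49C/I+ cells.

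Integrins are adhesion receptors made of 1 alpha and 1 beta subunit, and a subunit without its partner does not reach the cell surface. Itgb1 pairs with Itga1 (CD49a) and Itga2 (CD49b) in collagen receptors and with Itga4 in a receptor for VCAM1 and fibronectin. Itgb2 pairs with Itgal in LFA-1, the ICAM receptor of the cytotoxic synapse, and with Itgam in Mac-1. Itgb7 pairs with Itga4 in the receptor for MAdCAM-1 and with Itgae (CD103) in the receptor for E-cadherin. CD49a is the surface marker most used for tissue-resident NK cells, the uterine ones among them, and CD49b is that of conventional NK cells.

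In the GENCODE M21 annotation of GRCm38, Itga1 (ENSMUSG00000042284) lies on the minus strand of chromosome 13, chr13:114953096-115101964. Itga2 (ENSMUSG00000015533) follows it on the same strand, chr13:114833081-114932100, with 20995 bases between the genes. Itgb7 (ENSMUSG00000001281) lies on the minus strand, chr15:102215995-102231944. Itgal, at chr7:127296260-127335138, and Itgam, at chr7:128062640-128118491, share the plus strand of chromosome 7. Itga4, at chr2:79255426-79333123, and Itgav, at chr2:83724397-83806916, share that of chromosome 2. Itgae (chr11:73090583-73147446), Itgb1 (chr8:128685654-128733200) and Itgb2 (chr10:77530252-77565708) are on the plus strands of their chromosomes.

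RefSeq promoter sequence of GRCm38.p6 was matched for 7 of the 10 genes. The 250 bases before the start are shown for the neighbouring collagen receptor genes Itga1 and Itga2, which differed in the direction of change described below, for Itgb7, which had the largest fold change, and for Itga4, whose window held most of the motif matches. They read 5′ to 3′ on the strand of the gene, and capitals mark matches to the motifs searched.
Itga1, minus strand, chr13:115101965-115102214: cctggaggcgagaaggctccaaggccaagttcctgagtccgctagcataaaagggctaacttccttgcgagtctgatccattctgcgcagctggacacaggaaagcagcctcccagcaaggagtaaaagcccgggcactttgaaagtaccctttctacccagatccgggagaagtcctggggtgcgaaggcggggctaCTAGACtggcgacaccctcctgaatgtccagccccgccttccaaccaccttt
Itga2, minus strand, chr13:114932101-114932350: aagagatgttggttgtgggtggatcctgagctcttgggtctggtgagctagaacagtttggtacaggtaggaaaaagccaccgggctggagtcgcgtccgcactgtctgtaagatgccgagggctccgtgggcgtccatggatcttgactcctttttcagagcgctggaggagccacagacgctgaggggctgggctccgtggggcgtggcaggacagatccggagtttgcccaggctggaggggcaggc
Itga4, plus strand, chr2:79255176-79255425: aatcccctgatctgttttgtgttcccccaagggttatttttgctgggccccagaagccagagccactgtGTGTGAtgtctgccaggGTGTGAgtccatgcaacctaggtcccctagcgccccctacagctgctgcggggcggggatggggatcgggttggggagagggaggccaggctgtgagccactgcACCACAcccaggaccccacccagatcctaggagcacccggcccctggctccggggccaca
Itgb7, minus strand, chr15:102231936-102232185: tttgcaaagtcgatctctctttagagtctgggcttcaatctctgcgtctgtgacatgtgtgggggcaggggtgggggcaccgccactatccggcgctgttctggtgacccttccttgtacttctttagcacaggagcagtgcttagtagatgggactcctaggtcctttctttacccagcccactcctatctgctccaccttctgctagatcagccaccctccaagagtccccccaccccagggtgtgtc

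Both strands were searched for TGTGGT, read by RUNX factors, TCACAC, the T-box core of EOMES and T-bet sites, CAGGAAG, an ETS site, and GTCTAG, a SMAD site. The Itga4 window held the T-box core 181 to 176 and 164 to 159 bases before the start and the RUNX motif 60 to 55 bases before it. All of these matches were on the opposite strand. That of Itga1 held the SMAD motif 52 to 47 bases before the start, and that of Itgb1 the ETS motif 56 to 50 bases before it. None of these letters were in the windows of Itga2, Itgb7, Itgam or Itgav. Among all 32851 promoters in the table, 14.0% held the RUNX motif, 12.3% the T-box core, 10.8% the ETS motif and 7.11% the SMAD motif in the same window. Each motif was found in 1 of the 7 windows.

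Reads on genes numbered 13287163 in the shallowest and 18875033 in the deepest library, with a median of 17273311. Klrc1 and Klra9 followed the sort, and Klra3 did not. Klrc1, the gene of NKG2A, held between 495 and 753 CPM (counts scaled to the library total) in NKG2A+ libraries and at most 13.9 CPM in WT uneducated ones, and Klra9, the gene of Ly49I, held between 452 and 1137 CPM in Ly49C/I+ libraries of both genotypes and at most 124 CPM in all others. Klra3, the gene of Ly49C, was lower in the Ly49C/I+ cells of WT mice, at 54.9 ± 19.5 CPM (SD, n = 6) against 137.8 ± 50.7 CPM (n = 9) in uneducated ones (log2 fold change -1.31, SE 0.26, adjusted p = 0.0059). In KO mice it was at 94.4 ± 11.2 CPM (n = 5) against 147.3 ± 25.0 CPM (n = 8; -0.64, SE 0.12, adjusted p = 0.0029). Because every KO population was sorted as NKG2A negative, Klrc1 does not check the genotype: it held 0.781 to 3.14 CPM in KO uneducated and 1.26 to 13.9 CPM in WT uneducated libraries. The NK cell gene Ncr1 (NKp46), whose protein was used in the sort, held at least 463 CPM in every library. It was higher in NKG2A+ than in uneducated WT cells (939.5 ± 49.1 against 607.5 ± 61.3 CPM, n = 9 each; log2 fold change 0.64, SE 0.06, adjusted p = 1.3e-06). Of 11 NK identity genes, 5 rose and 2 fell in NKG2A+ cells, the latter being Prf1 (-0.69, adjusted p = 2.9e-04) and Gzmb (-0.68, adjusted p = 1.8e-04), which encode perforin and granzyme B. In Ly49C/I+ cells 3 rose and 2 fell in WT mice, and 5 rose and 2 fell in KO mice. Between 13982 and 14197 genes had a read in WT uneducated 5, WT NKG2A+ 9, WT Ly49C/I+ 5 and KO Ly49C/I+ 5, against 14989 or more in each other library, so counts of integrin genes called are also given without these 4.

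Levels of the integrin genes were compared with each other only as CPM per kb of exon. On that scale they fell into a high and a low set. Itgb2 (mean over 37 libraries 330.9 CPM per kb), Itgb1 (313), Itgal (135) and Itgb7 (128) were above all others in every library. The remaining members lay far lower, with Itga1 at 10.3, Itgav at 9.54, Itgam at 8.20, Itga4 at 6.08, Itga2 at 4.14 and Itgae at 1.76 CPM per kb. The order of some neighbours turned between groups. Itgb1 was above Itgb2 in 9 of 9 WT uneducated libraries (means 327.5 and 268.6 CPM per kb), whereas Itgb2 was above Itgb1 in 7 of 9 NKG2A+ libraries (379 and 315) and 4 of 5 KO Ly49C/I+ libraries (401 and 315). Itgal was above Itgb7 in 9 of 9 WT uneducated libraries (116 and 71.7 CPM per kb) and in 2 of 9 NKG2A+ libraries (157 and 189). Itgav was above Itgam in 9 of 9 WT uneducated libraries (11.2 and 4.78 CPM per kb) and in 0 of 5 KO Ly49C/I+ libraries (7.95 and 13.1). Itga1 and Itgav lay close in every group, with Itga1 the higher in 5 of 9 WT uneducated libraries (11.7 and 11.2 CPM per kb) and in 5 of 9 NKG2A+ libraries (8.99 and 8.26). By contrast, Itgb1 exceeded Itgal and Itgb7 exceeded Itga1 in 37 of 37 libraries. Among the alpha subunit genes of the list, therefore, the transcript of the LFA-1 alpha subunit was the most abundant. Other alpha subunit genes, Itgax among them, were not compared per length. Itga1 exceeded Itga2 per length in WT uneducated cells (11.7 ± 1.48 against 2.99 ± 1.25 CPM per kb, SD, n = 9). The order of all 10 genes was unchanged when the longest coding transcript was used as the length.

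**Figure D1:**
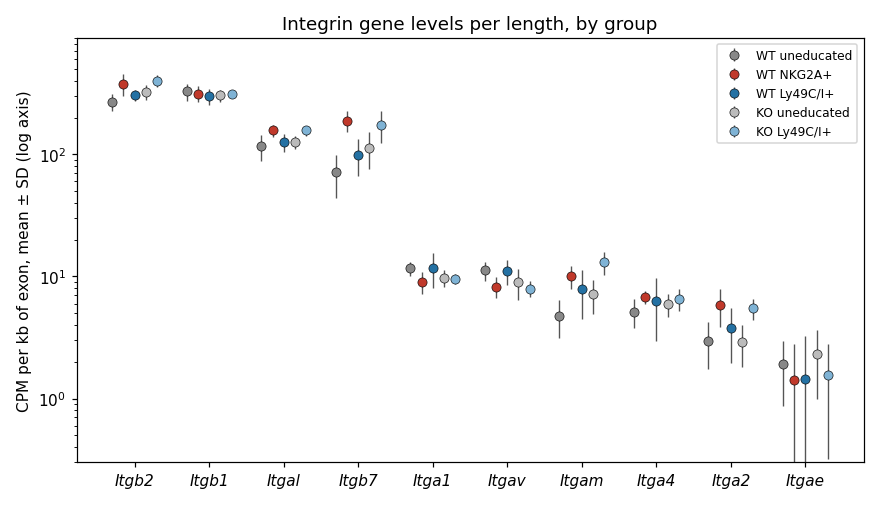
Level of each integrin gene per length (CPM per kb of exon, log axis, mean ± SD) in the 5 groups of uNK libraries, with genes ordered by their mean over all libraries. KO stands for NKG2A KO, and lower error bars of Itgae that reach below the axis are not drawn in full. Itgb2, Itgb1, Itgal and Itgb7 have group means of 71.7 CPM per kb or more, and those of the other 6 genes are at 13.1 or less.

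For Itgam, 66.3% of the 50-base stretches of its transcripts also occur in Gm49368, a gene that overlaps it on the same strand. Reads set aside as ambiguous or not unique were not counted for any gene. The sources used here do not say which reads shared between genes are among them. The level of Itgam per length is therefore uncertain and may be too low. Gm49368 itself held at most 1.35 CPM. Shared stretches came to 7.51% for Itga4, which overlaps Cerkl on the opposite strand, 5.40% for Itgav, 3.27% for Itga1, 1.05% for Itgb2 and none for the other 5. Nor do they say whether strand was used, so reads of Itga4 and Cerkl, and of Itgae and the overlapping Haspin, cannot be told apart with certainty. Haspin held between 1.27 and 22.8 CPM.

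The first comparison asked how integrin genes differ between NKG2A+ educated and uneducated uNK cells of WT mice. Of the 10 genes, 7 passed an adjusted p of 0.05 in edgeR's quasi-likelihood test across all genes, 5 of them higher and 2 lower in NKG2A+ cells. Among all 9339 genes tested, 15.0% passed, 7.47% higher and 7.56% lower. The genes that rose were Itgb7, Itgam, Itga2, Itgb2 and Itgal. Itga1 and Itgav fell. The median log2 fold change of the 10 genes was 0.42, beside 0.01 over all genes tested. Without the 4 libraries with few detected genes, 8 of the 10 passed, Itga4 being the additional one. The share of all genes that passed without these libraries is not given here. In bulk libraries, fewer cells of a type and less RNA per cell cannot be told apart.

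**Figure D2:**
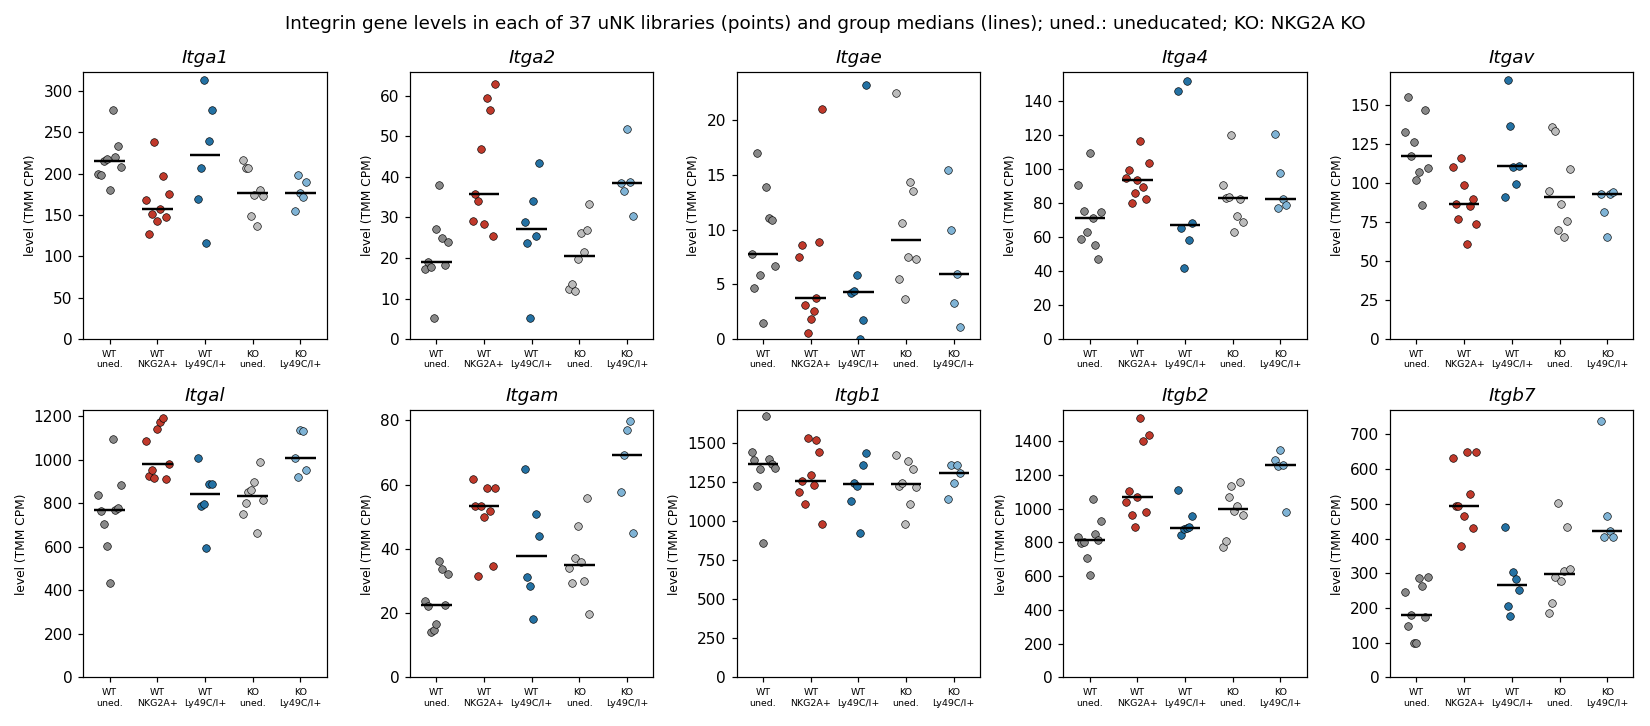
Level of each integrin gene (TMM-scaled CPM, linear axis from 0, a separate scale for each gene) in each of the 37 libraries, shown as points by group with a line at the group median. KO stands for NKG2A KO. All 9 NKG2A+ libraries lie above all 9 WT uneducated libraries for Itgb7, whereas the groups overlap for the other 9 genes.

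The beta 7 subunit gene changed most. Itgb7 ranged from 98.6 to 289.8 CPM in WT uneducated libraries (median 179) and from 378 to 649 CPM in NKG2A+ libraries (median 495). The lowest NKG2A+ library was thus above the highest uneducated one, and the level was 2.66-fold higher (log2 fold change 1.41, SE 0.19, adjusted p = 3.2e-05). It was the only integrin gene of the 10 whose groups did not overlap, where 2.01% of all genes tested had groups that did not overlap. Neither alpha partner rose past the threshold with it in this test. Itga4 ranged from 46.9 to 109 CPM in uneducated (median 71.2) and from 80.2 to 116 CPM in NKG2A+ libraries (median 93.5). All but 1 of the NKG2A+ libraries lay within the uneducated range, in its upper part, and the log2 fold change of 0.40 (SE 0.14) did not pass (adjusted p = 0.0566). It passed without WT uneducated 5, which held the highest uneducated level (0.51, adjusted p = 0.0042), and without WT uneducated 1 (0.44, adjusted p = 0.044). With all libraries it passed in DESeq2 (0.39, adjusted p = 0.044) and in edgeR's likelihood ratio test (0.40, adjusted p = 0.041). It also passed with the replicate number as a block (0.435, edgeR, adjusted p = 0.030). In all, 7 of 29 alternatives called it, so this call turned on the test as well as on single libraries. Itgae was scarce, from 1.47 to 17.0 CPM in uneducated (median 7.78) and from 0.589 to 21.0 CPM in NKG2A+ libraries (median 3.80). Its counts of 10 to 364 reads in these libraries spread widely, the groups overlapped almost completely, and the log2 fold change of -0.44 had an approximate 95% interval from -1.49 to 0.61 (adjusted p = 0.62).

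The 3 genes of the LFA-1 and Mac-1 receptors rose. Itgb2, the beta subunit of both, ranged from 605 to 1054 CPM in uneducated (median 812) and from 893 to 1536 CPM in NKG2A+ libraries (median 1068). Of the 9 NKG2A+ libraries, 5 were above all uneducated ones. The log2 fold change was 0.51 (SE 0.11, adjusted p = 0.0031). Itgal ranged from 435 to 1094 CPM (median 771) against 910.3 to 1191 CPM (median 979). Only WT uneducated 6 reached into the NKG2A+ range, and the log2 fold change was 0.44 (SE 0.12, adjusted p = 0.014). Itgam ranged from 14.1 to 36.1 CPM (median 22.5) against 31.4 to 61.7 CPM (median 53.3), with 7 of 9 NKG2A+ libraries above all uneducated ones. Its log2 fold change was 1.08 (SE 0.19, adjusted p = 5.4e-04), measured within a gate that removed cells with high CD11b.

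The genes of the 2 collagen receptor alpha subunits moved in opposite directions. Itga1 ranged from 179.8 to 277 CPM in uneducated (median 215) and from 128 to 238 CPM in NKG2A+ libraries (median 157). Below all uneducated libraries lay 7 of 9 NKG2A+ ones, while NKG2A+ 4 stood above most of them, and the log2 fold change was -0.36 (SE 0.11, adjusted p = 0.022). Itga2 ranged from 5.27 to 38.0 CPM (median 19.1) against 25.4 to 63.0 CPM (median 35.7). Of the NKG2A+ libraries, 4 were above all uneducated ones, and the log2 fold change was 0.98 (SE 0.26, adjusted p = 0.015). Itgb1, the shared beta subunit, did not pass, at 861 to 1671 CPM (median 1364) against 984 to 1531 CPM (median 1260). Its log2 fold change of -0.05 had an approximate 95% interval from -0.25 to 0.16. Itgav, which pairs with Itgb1, Itgb3 and others in receptors for RGD ligands such as vitronectin and osteopontin, ranged from 86.2 to 155 CPM (median 118) against 60.7 to 116 CPM (median 86.8). Of the NKG2A+ libraries, 4 lay below all uneducated ones and the rest within their range, with a log2 fold change of -0.43 (SE 0.13, adjusted p = 0.024). This call was lost without WT uneducated 2 (-0.38, adjusted p = 0.051).

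**Figure D3:**
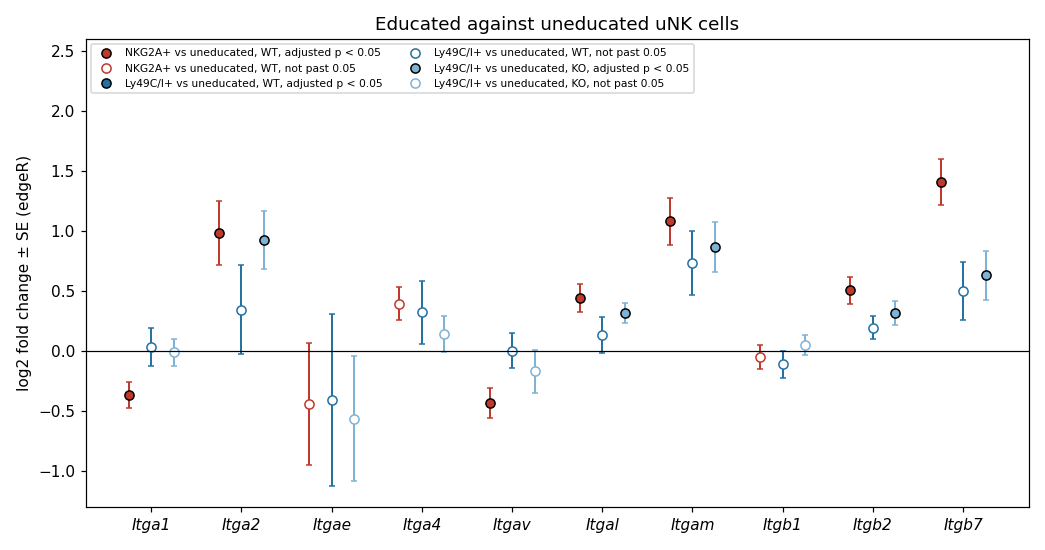
Log2 fold change (points, ± SE) of each integrin gene between educated and uneducated uNK cells in edgeR's quasi-likelihood fits, for NKG2A+ and Ly49C/I+ cells of WT mice and Ly49C/I+ cells of NKG2A KO mice. Filled points passed an adjusted p of 0.05: 7 genes for NKG2A+, none for Ly49C/I+ in WT and 5 for Ly49C/I+ in NKG2A KO mice.

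Because Itga1 and Itga2 are measured in the same library, their ratio was also compared, as log2((Itga1 CPM + 1)/(Itga2 CPM + 1)). It measured 3.41 ± 0.72 (SD, n = 9) in WT uneducated cells, 2.02 ± 0.42 (n = 9) in NKG2A+ cells, 3.13 ± 1.34 (n = 6) in WT Ly49C/I+ cells, 3.13 ± 0.70 (n = 8) in KO uneducated cells and 2.18 ± 0.34 (n = 5) in KO Ly49C/I+ cells. The highest NKG2A+ library (2.49) was below the lowest WT uneducated one (2.68). This difference of -1.39 had a two-sided exact permutation p of 4.1e-05, the smallest that 9 against 9 libraries can give (adjusted over the 6 comparisons made, 2.5e-04). NKG2A+ cells were also below WT Ly49C/I+ cells in the mean (difference -1.12, exact permutation p = 0.0098, adjusted 0.029). That call was lost without WT Ly49C/I+ 4 (difference -0.61, exact permutation, adjusted p = 0.082), in which Itga2 was at 5.24 CPM. In KO mice Ly49C/I+ cells had the lower ratio of the sorted pair (difference -0.96, exact permutation p = 0.019, adjusted 0.039). It no longer passed without KO uneducated 2 (-0.86, exact permutation, adjusted p = 0.051) or KO Ly49C/I+ 6 (-0.85, 0.053). In WT mice Ly49C/I+ and uneducated cells differed by -0.28, less than the spread between libraries (exact permutation p = 0.62, adjusted 0.62). The genotypes differed by -0.28 in uneducated cells (exact permutation p = 0.45, adjusted 0.54) and by -0.96 in Ly49C/I+ cells (exact permutation p = 0.11, adjusted 0.17). The latter difference passed without WT Ly49C/I+ 5 (-1.24, exact permutation, adjusted p = 0.029).

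**Figure D4:**
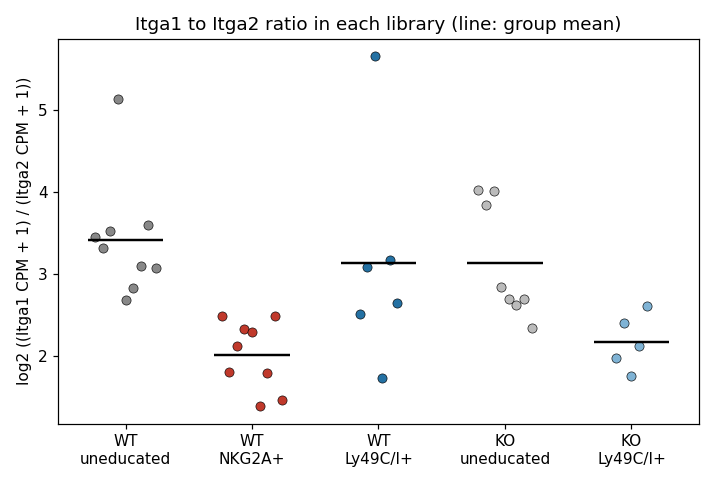
Log2 ratio of Itga1 to Itga2 (CPM + 1) in each library (points) with the mean of each group (line). The 9 NKG2A+ libraries lie between 1.39 and 2.49 and all 9 WT uneducated libraries at 2.68 or more, while 1 WT Ly49C/I+ library reaches 5.65.

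The second comparison set Ly49C/I+ against uneducated cells of WT mice. None of the 10 integrin genes passed in edgeR's quasi-likelihood test, where 9.20% of the 9292 genes tested did. An unadjusted p under 0.05 was found for 1 of the 10 and for 2284 of all 9292 genes tested. DESeq2 also called 0 of them, and edgeR without the 4 libraries with few detected genes called 1, Itgam. With the replicate number as a block, however, the quasi-likelihood test called 4: Itgal, Itgam, Itgb2 and Itgb7, all higher. The 9.20% belongs to the main fit, and the shares of all genes called in these alternatives are not given here. No integrin gene had groups that did not overlap, against 2.42% of genes tested. Itgam came nearest, with 18.2 to 64.8 CPM (median 37.7) in the 6 Ly49C/I+ libraries. Of these, 3 were above all uneducated libraries and the others within their range, and the log2 fold change was 0.74 (SE 0.27, adjusted p = 0.089). It passed without WT Ly49C/I+ 5, one of the libraries with few detected genes, in which Itgam was lowest (0.87, adjusted p = 0.047). Itgb7 was at 177 to 434.5 CPM (median 267) with a log2 fold change of 0.50 (SE 0.24, adjusted p = 0.21). Itgb2 was at 844 to 1107 CPM (median 887), a log2 fold change of 0.20 (SE 0.10, adjusted p = 0.22). Only 2 Ly49C/I+ libraries exceeded the uneducated range for Itgb7, and 1 for Itgb2.

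The Ly49C/I+ libraries of WT mice spread widely in several of the remaining genes. Itga1 ranged from 116 to 313 CPM (median 223), Itga2 from 5.24 to 43.3 CPM (median 27.2) and Itga4 from 41.7 to 152 CPM (median 66.9). WT Ly49C/I+ 4 held the most Itga1 with the least Itga2 and Itga4, and WT Ly49C/I+ 5 the least Itga1 with the most Itga4. Their log2 fold changes against uneducated cells were 0.04 (approximate 95% interval -0.29 to 0.37) for Itga1, 0.35 (-0.43 to 1.12) for Itga2 and 0.32 (-0.23 to 0.87) for Itga4. Those of Itgal (0.14), Itgav (0.01), Itgb1 (-0.11) and Itgae (-0.41) did not pass either, and Itgae was without a read in WT Ly49C/I+ 5. A count of 0 in one library allows up to 3 counts.

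Between the 2 educated populations, 1 of the 9 integrin genes tested passed, beside 2.73% of the 9308 genes tested. In NKG2A+ cells Itgb7 was 1.88 times the Ly49C/I+ level (log2 fold change 0.91, SE 0.17, adjusted p = 0.0066), and 7 of 9 NKG2A+ libraries were above all Ly49C/I+ ones. It passed in each of the 25 alternative analyses of this comparison. The ranges still touched, because WT Ly49C/I+ 1 held 434.5 CPM, and no integrin gene had groups apart (1.07% of genes tested). Itgal (log2 fold change 0.31, SE 0.09, adjusted p = 0.089) passed without WT Ly49C/I+ 1 (0.37, adjusted p = 0.038). Itgav was lower in 6 of 9 NKG2A+ libraries than in any Ly49C/I+ one. Itga1 (-0.41, SE 0.17), Itgav (-0.44, SE 0.15) and Itgb2 (0.31, SE 0.11) had unadjusted p under 0.05 but adjusted p between 0.12 and 0.21. In all, 5 of the 9 integrin genes tested had an unadjusted p under 0.05, beside 1709 of the 9308 genes tested. Itgae was below the 5 CPM filter, and its level on the log2(CPM + 1) scale differed by 0.22 (two-sided exact permutation p = 0.75, unadjusted, n = 9 and 6).

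In NKG2A KO mice, Ly49C/I+ cells were compared with uneducated cells of that genotype. Of the 10 integrin genes 5 passed, all of them higher in Ly49C/I+ cells, against 16.3% of the 9299 genes tested, 7.34% higher and 8.99% lower. They were Itga2, Itgam, Itgal, Itgb2 and Itgb7. Without the 4 libraries with few detected genes, 4 passed: Itga2, Itgal, Itgam and Itgb7. The share of all genes that passed in that fit is not given here. No integrin gene had groups that did not overlap, where 6.04% of genes tested did. Itgam measured 57.8, 69.1, 76.9, 79.8 and 44.8 CPM in the 5 Ly49C/I+ libraries and 19.6 to 55.8 CPM (median 35.0) in the 8 uneducated ones. Only KO Ly49C/I+ 8 fell within the uneducated range, and the log2 fold change was 0.87 (SE 0.21, adjusted p = 0.0095). Itga2 measured 38.5, 36.5, 51.7, 38.6 and 30.3 CPM, against 11.9 to 33.3 CPM (median 20.6). Above all uneducated libraries were 4 of the 5, and the log2 fold change was 0.93 (SE 0.24, adjusted p = 0.016).

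The call of Itga2 was lost with all 37 libraries in one fit (0.94, adjusted p = 0.054). The other 3 calls of this comparison were each lost on leaving out some single libraries. Itgal measured 1008, 920.1, 1139, 1131 and 955 CPM against 664 to 990.3 CPM (median 833), a log2 fold change of 0.32 (SE 0.09, adjusted p = 0.019), and 3 of the 5 libraries were above all uneducated ones. It was lost without KO Ly49C/I+ 6 (0.29, adjusted p = 0.054) or KO Ly49C/I+ 7 (0.28, adjusted p = 0.065). Itgb2 measured 1285, 1254, 1347, 1260 and 977 CPM against 774 to 1157 CPM (median 998), with 4 of 5 libraries above the uneducated range (log2 fold change 0.32, SE 0.10, adjusted p = 0.040). Itgb7 measured 738, 404, 465, 421 and 405 CPM against 186 to 503 CPM (median 298). Only KO Ly49C/I+ 4 was above all uneducated libraries, and the log2 fold change was 0.63 (SE 0.21, adjusted p = 0.044). Itgb2 passed in 4 of the 13 analyses that left out 1 library (adjusted p up to 0.094) and Itgb7 in 3 of 13 (adjusted p up to 0.17, without KO Ly49C/I+ 4). With all libraries of this comparison, DESeq2 did not call Itgb7 (0.63, adjusted p = 0.072). Over all 23 alternatives Itgb2 and Itgb7 each passed in 9. Itga1, at 155, 198, 177, 172 and 190 CPM, lay within the uneducated range of 137 to 217 CPM (log2 fold change -0.01, approximate 95% interval -0.24 to 0.23). Itgav (-0.17), Itga4 (0.14), Itgb1 (0.05) and Itgae (-0.56) did not pass.

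Genotype was compared within each sort, whose cells need not be the same population in the 2 genotypes. No integrin gene passed for KO against WT uneducated cells (0% of 9288 genes tested in edgeR's quasi-likelihood test, 619 at an unadjusted p under 0.05, and no integrin gene by DESeq2). Of the 10, 5 had an unadjusted p under 0.05. Itgb7 ranged from 186 to 503 CPM in KO and from 98.6 to 289.8 CPM in WT uneducated cells, with 4 KO libraries above the WT range (log2 fold change 0.66, SE 0.23, adjusted p = 0.57). Itgam (0.58, SE 0.22) and Itgb2 (0.26, SE 0.10) were likewise higher in KO means, and Itga1 (-0.28, SE 0.10) and Itgav (-0.33, SE 0.15) lower, all with adjusted p between 0.63 and 0.74. In Ly49C/I+ cells 0 of 9 tested integrin genes passed in the quasi-likelihood test (0% of 9344 genes, 992 at an unadjusted p under 0.05). DESeq2 called 1, Itgb2, and edgeR's likelihood ratio test 2, Itgb2 and Itgb7. The shares of all genes called by these other tests are not given here. Itgb2 had a log2 fold change of 0.39 (SE 0.09, adjusted p = 0.17, by DESeq2 0.0068), with 4 of 5 KO libraries above all WT ones. Itgb7 (0.80, SE 0.21), Itgam (0.72, SE 0.27) and Itgal (0.30, SE 0.11) were higher and Itgav (-0.49, SE 0.16) lower in the KO means, with unadjusted p under 0.05 and adjusted p between 0.21 and 0.39. Itgae differed by 0.42 on the log2(CPM + 1) scale (two-sided exact permutation p = 0.63, unadjusted, n = 5 and 6).

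The effect of Ly49C/I+ against uneducated cells was then compared between genotypes by an interaction term, under the same limit on the sorted cells. It passed for 0 of the 10 integrin genes and 0% of 9322 genes tested (407 at an unadjusted p under 0.05, 0 integrin genes among them and none called by DESeq2). The differences of effect, KO minus WT, ran from -0.17 (Itga4) to 0.59 (Itga2) on the log2 scale. Approximate 95% intervals were wide, from -0.39 to 1.57 for Itga2, from -0.56 to 0.85 for Itgb7 and from -0.16 to 0.43 for Itgb2. The 5 calls in KO mice and 0 in WT mice are therefore not shown to differ. With the replicate number as a block, the calls were 2 in KO mice and 4 in WT mice.

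Counts of the gene lists below stand beside these shares of all genes tested. In NKG2A+ cells 7.47% were higher and 7.56% lower. In WT Ly49C/I+ cells 9.20% passed in either direction, and in KO Ly49C/I+ cells 7.34% were higher and 8.99% lower. The other integrin subunits, 17 genes, were mostly scarce, and 6 of them passed the filter on low counts in each comparison of sorted populations. In NKG2A+ against uneducated cells, 0 rose and 2 fell. Itgb3, the beta subunit of the vitronectin receptor and a partner of Itgav, fell from 155.5 ± 59.7 CPM (SD, n = 9) to 84.5 ± 19.5 CPM (n = 9; log2 fold change -0.87, SE 0.20, adjusted p = 0.0040). Itga3, a laminin receptor subunit, fell from 13.1 ± 3.29 to 7.05 ± 3.02 CPM (log2 fold change -0.89, SE 0.26, adjusted p = 0.024). In Ly49C/I+ cells Itgb3 was the 1 gene that passed in WT mice (log2 fold change -1.16, SE 0.23, adjusted p = 0.0060). In KO mice Itgb3 also fell (-1.06, SE 0.31, adjusted p = 0.029), and Itgad (1.25, SE 0.25, adjusted p = 0.0036) and Itgax (0.67, adjusted p = 8.9e-04), alpha partners of Itgb2 named after their values were seen, rose. Itgb3 and Itga2 are also platelet genes. The summed level of 6 platelet marker genes was 0.060 to 15.3 CPM in WT uneducated libraries and 0.112 to 1.47 CPM in NKG2A+ libraries, where Gp9, Ppbp and Treml1 were at 0 throughout.

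Genes that regulate the switch of integrins between the inactive and the active state were tested as a list of 23, of which 20 passed the filter. The list was not split into genes that promote and genes that restrain the switch, so its counts give no direction of integrin activity. In NKG2A+ cells 7 rose and 1, Fyb, fell (median log2 fold change 0.25). Rasgrp2, the exchange factor that activates RAP1, rose from 20.4 ± 6.86 to 49.5 ± 19.9 CPM (log2 fold change 1.29, SE 0.23, adjusted p = 6.1e-04, n = 9 each). Cytip, a regulator of cytohesin at LFA-1, rose from 339 ± 44.7 to 505 ± 54.4 CPM (0.58, SE 0.08, adjusted p = 4.3e-05). In WT Ly49C/I+ cells 2 of 20 rose, the adaptor Skap1 (0.64, SE 0.15, adjusted p = 0.012) and the cytohesin Cyth1 (0.58, SE 0.18, adjusted p = 0.045), and none fell. In KO Ly49C/I+ cells Cyth1, Rapgef6, Skap1, Cytip and Rap1b rose, 5 of 20, and none fell. Of 15 tested genes of the adhesion complex that links integrins to actin, 1 rose in NKG2A+ cells, Git2 (0.33, SE 0.11, adjusted p = 0.048). That count is near the 7.47% of all genes that rose. In Ly49C/I+ cells of either genotype 0 of 16 passed.

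Among 24 integrin ligand genes, 8 were tested in NKG2A+ cells, of which Icam1 and Icam2 rose (2) and Spp1 and Cdh1, the gene of E-cadherin, fell (2). Spp1, which encodes osteopontin, a ligand of Itgav and Itga4 integrins, fell from 7149 ± 2106 to 2677 ± 477 CPM (log2 fold change -1.41, SE 0.15, adjusted p = 2.6e-06). It also fell in Ly49C/I+ cells of WT mice (-1.36, SE 0.18, adjusted p = 5.5e-04) and KO mice (-1.14, SE 0.23, adjusted p = 0.0033). Icam2, a ligand of LFA-1, rose in NKG2A+ cells from 25.7 ± 4.93 to 46.0 ± 12.5 CPM (0.85, SE 0.16, adjusted p = 7.5e-04).

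Integrin genes were read beside the resident and conventional NK cell programs they are used to mark. Of 12 conventional NK genes, 8 rose and 1, Klrg1, fell in NKG2A+ cells (median log2 fold change 1.07). Klrg1 fell by 0.73 (log2 fold change -0.73, SE 0.11, adjusted p = 7.5e-05). S1pr1 and S1pr5, receptors for sphingosine 1-phosphate by which lymphocytes leave tissues, rose by 1.84 (SE 0.46, adjusted p = 0.0094) and 1.503 (SE 0.30, adjusted p = 0.0018). Of 15 tissue-resident NK and ILC1 genes, 6 rose and 1 fell in the same comparison (median 0.36). The largest increases were those of Cd200r1 (3.29, SE 0.62, adjusted p = 8.9e-04) and Cxcr6 (2.86, SE 0.38, adjusted p = 2.7e-05). Both lists therefore held more genes that rose than fell, while Itga1 fell. In WT Ly49C/I+ cells 2 of 11 conventional genes rose and 1 fell, and 3 of 12 resident genes rose and 1 fell. Of all genes tested there, 9.20% passed in either direction. Ly6c2 (0.99, SE 0.24, adjusted p = 0.015) and Xcl1 (1.11, SE 0.20, adjusted p = 0.0037) had the largest increases. In KO Ly49C/I+ cells the counts were 5 rising and 1 falling of 12, and 6 rising and 1 falling of 13. The conventional gene that fell there was S1pr1, at 12.1 ± 8.04 CPM against 24.1 ± 6.52 CPM in uneducated cells (-0.985, SE 0.33, adjusted p = 0.048).

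Itgal, Itgb2, Itgb7 and Itgam are also expressed by T cells or myeloid cells, so markers of those cells were followed. Of 10 T cell markers, 6 were tested in NKG2A+ cells, of which 4 rose. Cd3e rose from 4.06 ± 2.29 to 14.5 ± 8.05 CPM (log2 fold change 1.84, adjusted p = 0.0018). The 2 that did not pass were Cd3g, at 82.1 ± 37.0 CPM in uneducated and 74.05 ± 21.1 CPM in NKG2A+ libraries, and Trac, at 34.3 ± 12.1 and 28.95 ± 7.38 CPM (SD, n = 9 each). In Ly49C/I+ cells Trbc1 and Trbc2 rose in WT mice and Trbc1 in KO mice. The summed level of the list was 443 to 620.2 CPM in WT uneducated, 595 to 828 CPM in NKG2A+, 636 to 833 CPM in WT Ly49C/I+, 516 to 703 CPM in KO uneducated and 686 to 768 CPM in KO Ly49C/I+ libraries. Trbc1, a T cell receptor constant segment, had the highest mean CPM of the list in each group, whereas Cd4 was at most 3.33 CPM and Cd8a at most 2.74 CPM in any library. The 10 macrophage and monocyte markers summed to 34.6 to 153 CPM in uneducated and 12.1 to 329 CPM in NKG2A+ libraries, and 0 of 4 tested passed. KO Ly49C/I+ libraries, with Itgam at 44.8 CPM or more, held 7.98 to 151 CPM of them. Of 7 dendritic cell markers, 4 were tested and 2 fell in NKG2A+ cells, H2-Ab1 (-1.62, adjusted p = 0.0055) and Cd74 (-1.18, adjusted p = 0.014). The list summed to 588 to 999.5 CPM in WT uneducated and 289.5 to 843 CPM in NKG2A+ libraries. Itgax, itself an integrin gene, had the highest mean of this list in every group. Its means ran from 323.5 CPM in KO uneducated to 513 CPM in KO Ly49C/I+ cells, so the sums do not measure dendritic cells alone. In WT Ly49C/I+ cells Cd74 (-1.83, adjusted p = 0.0059) and H2-Ab1 (-1.67, adjusted p = 0.020) fell, and the list summed to 568.1 to 796 CPM. In KO Ly49C/I+ cells H2-Ab1 (-2.59, adjusted p = 9.8e-04), Cd74 (-2.08, adjusted p = 0.0029) and H2-Aa (-2.07, adjusted p = 0.0029) fell and Itgax rose, with sums of 440.5 to 710.2 CPM against 547 to 1053 CPM in KO uneducated libraries. The 6 neutrophil markers summed to at most 44.4 CPM and the 6 endothelial markers to at most 5.50 CPM in any library. Of 6 epithelial and trophoblast markers, 2 were tested and both, Epcam and Cdh1, fell in NKG2A+ cells, and the 8 stromal and decidual markers reached 888 CPM in 1 NKG2A+ library. The part of other cells in the integrin differences was not tested.

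Across all 37 libraries, the genes whose levels were most like those of each integrin gene were found by Pearson's r of log2(CPM + 1) over 9279 genes. These values describe the libraries, which share groups, and carry no test. Adgre5 (CD97) was most like Itgb7 (r = 0.93, Spearman's rho 0.93, r = 0.92 without the 2 libraries farthest from the median), Itgb2 (r = 0.89) and Itgam (r = 0.87). S1pr5 came second for Itgb2 (r = 0.88) and Klrb1a second for Itgam (r = 0.85). Zeb2, a transcription factor of mature NK cells, was most like Itgal (r = 0.87), followed by Anxa6 (r = 0.85). Itga2 was nearest to Pxylp1 (r = 0.79) and Cd9 (r = 0.77), and Itga4 to Cx3cr1, a chemokine receptor of mature NK cells (r = 0.74), and Plec (r = 0.69). Itgb1 was nearest to Dhx33 (r = 0.76) and Tmem123 (r = 0.75). Weaker values were found for Itgae (Eml2, 0.67, and Recql, 0.67), Itga1 (Pcnx4, 0.63, and Hp1bp3, 0.59) and Itgav (Ctla4, 0.63, and Myo1e, 0.62). Without the 2 libraries farthest from the median, r of the 20 pairs computed ran from 0.48 to 0.92, and Spearman's rho over all libraries from 0.56 to 0.93.

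Among the integrin genes themselves, deviations from the group means were compared over the 37 libraries, again without a test. Itgb2 and Itgb7 varied together (r = 0.75 within groups), as did Itgal with Itgam (0.69) and with Itgb2 (0.67) and Itga1 with Itgb1 (0.61). Itga1 and Itga4 varied in opposite directions (-0.61), as did Itga4 and Itgb1 (-0.54) and Itgav and Itgb2 (-0.48). Pooled over the 5 groups, libraries with more Itga1 than their group mean thus tended to hold less Itga4. In WT Ly49C/I+ 4 Itga1 was at 313 and Itga4 at 41.7 CPM, and in WT Ly49C/I+ 5 they were at 116 and 152 CPM. WT Ly49C/I+ 5 and WT uneducated 5 (Itga1 at 179.8 and Itga4 at 109 CPM) are libraries with few detected genes. Each held the lowest Itga1 and the highest Itga4 of its group. Values of r without the libraries with few detected genes are not given here. Whether Itga1 and Itga4 vary in opposite directions within each sorted population was not tested.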

How the data were processed

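Bulk RNA-seq of sorted uNK cells was analysed in 37 libraries, made with the SMART-Seq v4 and Nextera XT kits. The values are the deposited raw counts of reads per gene; per the submitters' processing notes, tools used included FastQC 0.11.4, Trim Galore 0.5.0, STAR 2.7.1, edgeR 3.26.5 and R 3.6.1, with the build GRCm38. The sources used here name neither the counting program nor its strand setting, which are thus not given. The 5 summary lines that name no gene were left out (no feature 2.69 to 6.83%, ambiguous 4.04 to 4.60% and not unique 11.3 to 13.8% of the reads).

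Groups came from the labels. Nothing there says that libraries came from separate mice, so p-values measure only the spread between these libraries. A gene was tested where a share of 0.5 or more of the compared libraries reached 5 CPM. The main test was that of edgeR 4.0.16, run under R 4.3.3 (TMM scaling, quasi-likelihood test, Benjamini-Hochberg adjustment over all genes tested, threshold 0.05). Intervals are approximate 95% intervals of the fit. Levels are CPM scaled by TMM over all libraries, and lengths are unions of exons. Ratios and genes under the filter were compared by two-sided exact permutation tests with a pseudocount of 1 CPM. The procedure was tested on simulated data. DESeq2 1.42.0, other scaling, filters and models, and leaving out libraries were alternatives.

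The integrin genes and all lists were chosen with earlier results of these data known. All 10 integrin genes are named. Of each other list, at most 2 genes per comparison are named, those with the largest fold change past the threshold, and for each integrin gene the 2 genes with the highest Pearson's r, except that some items are not reported here. Itgad, Itgax, Fyb, Rapgef6, Rap1b, Icam1, Cdh1, Ncr1, Klrg1, S1pr1 in KO mice and the marker genes beyond this rule were named after their values were seen. The choice to leave out the libraries with few detected genes and to use the longest coding transcript was also made then.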

Additional observations from a re-analysis of the deposited data

Results flagged for a closer look

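Within groups of 4 to 10 libraries, 1 library stood apart from the rest in 4 of the 50 combinations of gene and group, where chance gives about 1 in 20. Itgae was at 21.0 CPM in WT NKG2A+ 9 and at 23.3 CPM in WT Ly49C/I+ 8, each the highest of its group. Itgb2 was lowest in KO Ly49C/I+ 8, at 977 CPM, and Itgb7 highest in KO Ly49C/I+ 4, at 738 CPM. Itgb7 also differed between the 2 educated populations of WT mice in the direct test, with a log2 fold change of 0.91 for NKG2A+ against Ly49C/I+ cells (edgeR, adjusted p = 0.0066), higher in 7 of 9 NKG2A+ libraries than in any Ly49C/I+ library.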

How the results depend on the processing

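Counts of integrin genes called for NKG2A+ against uneducated WT cells stayed between 5 and 8 of 10 in all alternatives, and those for uneducated cells by genotype and for the interaction at 0. The cause of the changes below was not tested. Shares of all genes called under the alternatives are not given here, so the counts below have no background beside them. For Ly49C/I+ against uneducated WT cells the count of 0 became 1 with all 37 libraries in one fit and without the libraries with few detected genes, and 0 to 1 on leaving out 1 library. For NKG2A+ against Ly49C/I+ cells the count of 1 became 2 in DESeq2 and with a GC and length offset, and 1 to 2 on leaving out 1 library. For Ly49C/I+ against uneducated KO cells the count of 5 became 2 without a filter, 3 with a filter of 1 CPM, 1 with all libraries in one fit and 2 to 5 on leaving out 1 library. For Ly49C/I+ cells by genotype the count of 0 became 1 in DESeq2 and 2 in the likelihood ratio test.

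Libraries share replicate numbers, and no label says whether a shared number is a shared mouse. Within a genotype, same-numbered libraries correlated with medians of 0.036 to 0.12, against means of -0.023 to -0.012 for other numbers. The best match was the own number in 5 of 9, 5 of 6, 6 of 6 and 5 of 5 libraries. This order is NKG2A+ and Ly49C/I+ against uneducated WT cells, NKG2A+ against Ly49C/I+ cells, and the KO pair. Between genotypes the medians were 0.002 and 0.009. A pairing is thus possible within a genotype, and the main fits took no account of it. With the replicate number as a block, 4 integrin genes were called for Ly49C/I+ against uneducated WT cells, all higher: Itgal (0.27, adjusted p = 0.036), Itgam (0.78, 0.046), Itgb2 (0.29, 0.040) and Itgb7 (0.74, 0.023). With the GC and length offset added, 3 were called there, without Itgal. In KO mice 2 were called with the block, Itgam and Itgb7, and 3 with the offset added. Itga2 was lost there in both (0.63, adjusted p = 0.12, and 0.54, 0.17). For NKG2A+ against uneducated cells the block called 8.

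On leaving out 1 library, the Itga1 to Itga2 log2 ratio differed by -1.48 to -1.18 for NKG2A+ against uneducated cells, -0.78 to 0.002 for Ly49C/I+ against uneducated WT cells, -1.40 to -0.61 for NKG2A+ against Ly49C/I+ cells, -1.07 to -0.83 in KO mice, -1.24 to -0.45 for Ly49C/I+ cells by genotype and -0.404 to -0.063 for uneducated cells by genotype, the last without WT uneducated 4.

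In the comparisons of sorted populations within a genotype, log2 fold changes that turned sign passed no test under any setting that turned them. For Ly49C/I+ against uneducated WT cells, Itga1 was -0.035 with the GC and length offset, -0.049 with the block added and -0.096 to 0.158 on leaving out 1 library. Itgav there was -0.001 with RLE size factors and in DESeq2, -0.011 without a filter, -0.015 with a filter of 1 CPM, -0.055 with the replicate block, -0.022 with the offset, -0.085 with both and -0.127 to 0.061 on leaving out 1 library, and Itgb1 was 0.013 with the offset and the block. For NKG2A+ against Ly49C/I+ cells, Itgb1 was -0.033 with the offset and -0.004 to 0.11 on leaving out 1 library, and Itga4 -0.075 to 0.298. For NKG2A+ against uneducated cells Itgb1 ran from -0.104 to 0.002. In KO mice Itga1 was 0.14 with the block, 0.009 with all libraries in one fit and -0.059 to 0.039 on leaving out 1 library, Itga4 -0.047 with the offset and -0.037 with the block added, and Itgav 0.087 with the block.

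In NKG2A+ cells, the calls of Itga1 and Itgav were lost without a filter (adjusted p = 0.0606 and 0.0615). Between genotypes, over all alternatives, Itga2 ran from -0.186 to 0.092 in uneducated cells, and Itga4 from -0.121 to 0.313 and Itgb1 from -0.027 to 0.11 in Ly49C/I+ cells. The interaction changed sign among the alternatives for 7 of the 10 genes, with Itgae from -0.635 to 0.865 and Itgb7 from -0.314 to 0.322. Itgae held 0 to 418 reads per library.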
